A study of Mus musculus with 4 samples.

Results

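The genes described here are the subunits of the hypoxia-inducible factors (HIFs), the oxygen sensors that control them, and the HIF target Car9. They are defined by function: the subunits Hif1a, Epas1, Hif3a and Arnt, the hydroxylases Egln1, Egln2, Egln3 and Hif1an, the ubiquitin ligase subunit Vhl, and Car9. These 10 genes were found among the 47729 genes of the table, and 9 of them were among the 13694 genes that were tested, those whose mean over the 4 pools reached 1 RPM (reads of a gene per 1000000 reads counted on all genes). Car12, another carbonic anhydrase, is given beside Car9 and is not counted among the 10.

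HIFs are heterodimers of an alpha subunit, which oxygen makes unstable, and the stable beta subunit ARNT. In the presence of oxygen the EGLN prolyl hydroxylases modify the alpha subunit, VHL binds the hydroxylated form and the ligase marks it for degradation, while HIF1AN (FIH) hydroxylates an asparagine and keeps coactivators away. In low oxygen the alpha subunit accumulates, pairs with ARNT and activates genes of glycolysis, angiogenesis and pH control, including Egln3 and Car9 themselves. Oxygen acts on the alpha subunits mainly at the level of protein, which RNA-seq does not measure.

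RNA was sequenced from LLC (Lewis lung carcinoma, a C57BL/6 mouse line) tumors that had grown for 5 days under the skin of C57BL/6 mice. In the LLC-Chem group the grafted cells carried a pEFIN plasmid for a bioactive form of chemerin, a secreted attractant of leukocytes, and the study describes such cells as individual clones kept after G418 selection. The LLC group is labelled wild type, although the study also describes cells with the empty vector, and how many clones entered the pools is not given in the sources used here. Each group had 2 pools of 3 tumors, so the p-values measure the spread between pools.

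The fitted library totals ran from 28470000 to 33990000 reads, and 3 reads corresponded to 0.0883 to 0.105 RPM, a limit that covers counting error only. Rarres2, the chemerin gene, was at 102 and 98.2 RPM in LLC and at 106 RPM in both pools of LLC-Chem, with a log2 fold change of 0.08 (SE 0.09, adjusted p = 0.541 by limma), a difference that did not pass the test. Its exons share 33.6% of their bases with Lrrc61 on the opposite strand, and the strand used in counting was not stated. Of the carcinoma markers, the keratins Krt8 and Krt18 were between 82.8 and 167 RPM in every pool. Epcam and Cdh1 stayed under 1.40 RPM, Sftpc reached at most 0.0999 RPM and Nkx2-1 was listed at 0. Of the 3 carcinoma markers tested, limma called 0 higher and 0 lower, with a median log2 fold change of -0.67. At an unadjusted p under 0.05, and by DESeq2, 2 were lower and 0 higher. The list of 7 summed to 311 and 279 RPM in LLC and to 265 and 198 RPM in LLC-Chem. Over all genes tested, limma called 1306 (9.54%) higher and 1848 (13.5%) lower in LLC-Chem, at an adjusted p under 0.05.

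Promoter stretches of Egln3, Car9 and Arnt, which rose, and of Egln1 and Hif1a, which did not pass the test, are shown because HIFs bind the core letters ACGTG or GCGTG. These were searched on both strands (as CACGT and CACGC in reverse) in the 250 bases before each RefSeq start on GRCm38.p6. Of 32817 such windows in the genome, 16.6% held ACGTG, 28.1% held GCGTG and 38.6% held either. The members other than Epas1 had 10 windows, of which 5 held ACGTG, 5 held GCGTG and 8 held either, and the windows of Vhl, Hif1an and Car12 held neither. Below, the Egln3 window is given whole and the others as 29 bases around a match, 5′ to 3′ on the strand of the gene, with the match in capitals. They lie at chr12:54203875-54204124 (Egln3, minus strand), chr4:43506996-43507024 (Car9, plus), chr3:95434349-95434377 (Arnt, plus), chr8:124949306-124949334 (Egln1, minus) and chr12:73907721-73907749 (Hif1a, plus).
Egln3: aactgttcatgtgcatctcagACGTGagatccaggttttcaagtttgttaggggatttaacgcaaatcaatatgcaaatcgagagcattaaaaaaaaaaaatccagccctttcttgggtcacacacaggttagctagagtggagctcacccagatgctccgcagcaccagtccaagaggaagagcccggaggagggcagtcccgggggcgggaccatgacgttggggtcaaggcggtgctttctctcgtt
Car9: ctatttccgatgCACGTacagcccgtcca
Arnt: ccatagtttgggGCGTGtcttctgcccag
Egln1: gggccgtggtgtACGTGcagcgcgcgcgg
Hif1a: acacagacaagcACGTGagcggggcagct

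The match was 229 to 225 bases before the start in Egln3, 29 to 25 in Arnt and 18 to 14 in Car9, where it was read from the opposite strand. In Hif1a the match was part of the palindrome CACGTG and was therefore counted on both strands, with another ACGTG 70 to 66 bases before the start. The Car9 match and that of Egln1, 68 to 64 bases before the start, lie inside a first exon of GENCODE M21, which begins upstream of the RefSeq start. A match of 5 letters describes the sequence and does not show that a HIF binds there.

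Comparison of the groups addressed whether the genes of the HIF system differed between the LLC-Chem and LLC tumors. Among the 9 members tested, 3 were called higher in LLC-Chem (Egln3, Arnt and Car9) and 1 lower (Epas1), beside the 9.54% and 13.5% of all genes. The main alpha subunit Hif1a, Egln1, Egln2, Vhl and Hif1an did not pass the test. The LLC-Chem pools were both above both LLC pools for 5 members and below them for 1, beside 33.1% and 39.3% of all genes tested. Over the 9 members the log2 fold changes had a median of 0.29, and over all genes tested one of -0.04.

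**Figure D1:**
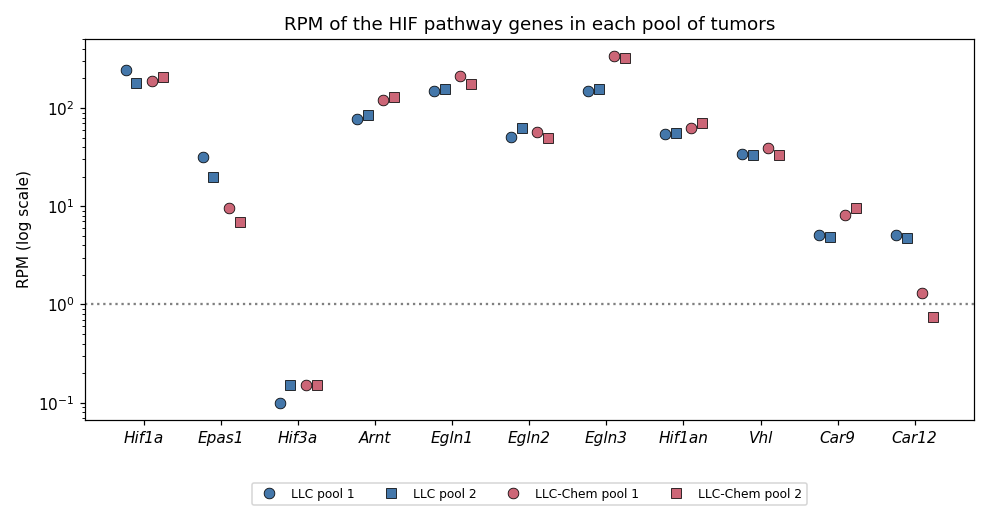
RPM on a log axis for the 10 genes and Car12 in each pool, with circles for pool 1, squares for pool 2 and a dotted line at 1 RPM. Egln3, Arnt and Car9 lie higher in both LLC-Chem pools, Epas1 and Car12 lie lower in both, and Hif3a lies near 0.1 RPM in all 4.

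Among the alpha subunits, Hif1a (ENSMUSG00000021109, chr12:73901375-73947530, plus strand), the subunit present in most cell types, measured 242 and 181 RPM in LLC and 188 and 207 RPM in LLC-Chem. Both LLC-Chem pools lay between the LLC pools. The means were 212 ± 43.4 and 197 ± 13.4 RPM (SD, n = 2), and the log2 fold change was -0.09 (95% interval -0.49 to 0.31, adjusted p = 0.699 by limma). This interval leaves room for a change of moderate size in either direction. Other annotated genes share 8.11% of its exon bases.

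Epas1 (ENSMUSG00000024140, chr17:86753700-86833410, plus strand) encodes HIF-2α, which is best known from endothelial cells. It measured 31.7 and 19.7 RPM in LLC and 9.64 and 6.95 RPM in LLC-Chem. Both LLC-Chem pools lay well below both LLC pools, and the LLC pools also differed from each other. The mean fell from 25.7 ± 8.48 to 8.30 ± 1.91 RPM (SD, n = 2), or 3.10-fold, with a log2 fold change of -1.56 (SE 0.28, 95% interval -2.25 to -0.86, adjusted p = 0.0222 by limma).

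Markers of endothelial cells moved with Epas1. Of 10 such markers, 9 were called lower in LLC-Chem and 0 higher by limma, beside 13.5% and 9.54% of all genes. The log2 fold changes of the 10 ran from -2.46 to -1.36 (median -2.06). At an unadjusted p under 0.05 all 10 were lower and 0 higher, and edgeR and DESeq2 called 0 higher. Their summed level was 290 and 232 RPM in LLC against 77.6 and 44.3 RPM in LLC-Chem. The junctional cadherin Cdh5 changed by a log2 value of -2.46 (adjusted p = 0.0141) and Pecam1, which encodes CD31, by -2.08 (adjusted p = 0.0204), both by limma. In the LLC-Chem pools Epas1 stood at 37.5% and 27.0% of its LLC mean, and the markers at 10.5% to 43.7% of theirs. Epas1 amounted to 10.9% and 8.52% of the summed endothelial RPM in LLC and to 12.4% and 15.7% in LLC-Chem. Fewer cells of a type and less RNA per cell cannot be told apart in such bulk samples, and the part of the endothelial markers in the Epas1 difference was not tested.

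**Figure D2:**
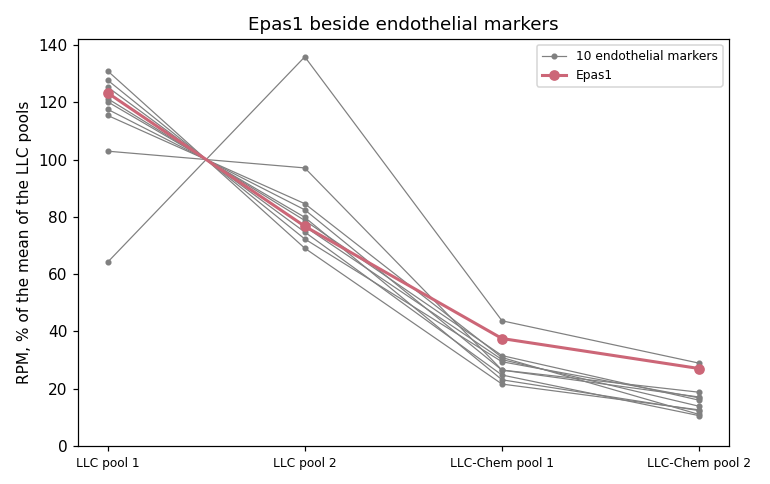
RPM of Epas1 (thick line) and of 10 endothelial markers (thin grey lines) in each pool, as percent of that gene's mean over the LLC pools, with lines joining the values of 1 gene. Epas1 and the markers are all under 44% in both LLC-Chem pools, and Tek alone is higher in LLC pool 2 than in LLC pool 1.

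Markers of leukocytes, which can also express Epas1, were partly lower. Of 8 tested, 4 were called lower and 0 higher by limma, beside 13.5% and 9.54% of all genes. The median log2 fold change was -0.94. Both LLC-Chem pools lay below both LLC pools for 7 of the 8, as for 39.3% of all genes tested. At an unadjusted p under 0.05, 6 were lower and 0 higher, beside 3208 and 2459 of the 13694 genes. EdgeR called 3 lower and DESeq2 5, with 0 higher by each. The leukocyte markers summed to 1497 and 1821 RPM in LLC and to 1208 and 779 RPM in LLC-Chem. Epas1 amounted to 2.12% and 1.08% of that sum in LLC and to 0.798% and 0.892% in LLC-Chem. Adgre1, the macrophage marker F4/80, did not pass the test (log2 fold change -1.01, adjusted p = 0.0851 by limma), although DESeq2 called it (0.0232). With 1 pool left out its log2 fold change ran from -1.51 (without LLC-Chem pool 1) to -0.52 (without LLC-Chem pool 2). Ly6g and Cd3e were at 0.650 RPM or less in every pool. Within LLC, pool 2 had the lower Epas1 and endothelial levels and the higher leukocyte level. Fibroblast markers were mixed, with 1 higher and 3 lower of 5 by limma, beside 9.54% and 13.5% of all genes. The counts were 0 and 3 by edgeR, 2 and 3 by DESeq2, and 0 and 1 with the replicate block. The fibroblast markers summed to 11647 and 20016 RPM in LLC and 7858 and 6422 RPM in LLC-Chem. These lists were likewise not tested as sources of the Epas1 difference.

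Hif3a (ENSMUSG00000004328, chr7:17031507-17062427, minus strand), the alpha subunit whose short forms can inhibit the others, measured 0.0999 and 0.150 RPM in LLC and 0.150 and 0.150 RPM in LLC-Chem. These values stand for 3 to 5 reads a library, at or just above the limit of detection, so it was not tested, and a fall or a small change was not detectable at this depth.

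Per kilobase of exon, which allows different genes to be compared, Hif1a was the main alpha subunit transcript in every pool. It held 87.8% and 89.6% of the summed alpha subunit level in LLC and 94.8% and 96.5% in LLC-Chem. Epas1 held 12.1% and 10.3% in LLC and 5.14% and 3.42% in LLC-Chem, and Hif3a, whose groups overlapped, at most 0.0665%. The groups did not overlap for Hif1a and Epas1, but with 2 pools against 2 the exact two-sided permutation test cannot go below p = 0.333, the value it gave for both. With Hif3a so low, the Hif1a and Epas1 shares mirror each other, and the RPM of Hif1a overlapped between the groups. The ratio of Hif1a to Epas1 per kilobase was 7.24 and 8.69 in LLC and 18.4 and 28.2 in LLC-Chem.

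Arnt (ENSMUSG00000015522, chr3:95434388-95497240, plus strand) encodes the beta subunit that all 3 alpha subunits and the aryl hydrocarbon receptor share. It measured 77.2 and 84.5 RPM in LLC and 121 and 130 RPM in LLC-Chem, with the groups well apart. The mean rose from 80.8 ± 5.19 to 125 ± 6.19 RPM (SD, n = 2), or 1.55-fold, with a log2 fold change of 0.63 (SE 0.10, 95% interval 0.37 to 0.89, adjusted p = 0.0185 by limma). Per kilobase, Arnt stood at 0.234 and 0.344 of Hif1a in LLC and at 0.475 and 0.462 in LLC-Chem, so it was below Hif1a in every pool.

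Egln3 (ENSMUSG00000035105, chr12:54178981-54203860, minus strand) encodes PHD3, the prolyl hydroxylase best known as a HIF target gene. It measured 150 and 157 RPM in LLC and 337 and 322 RPM in LLC-Chem. The pools of each group lay close together, and the LLC-Chem pools were far above the LLC pools. The mean rose from 153 ± 5.09 to 330 ± 10.8 RPM (SD, n = 2), or 2.15-fold, with a log2 fold change of 1.10 (SE 0.10, 95% interval 0.86 to 1.34, adjusted p = 0.00909 by limma). This was the lowest adjusted p among the members tested.

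Egln1 (ENSMUSG00000031987, chr8:124908587-124949324, minus strand) encodes PHD2, the main prolyl hydroxylase acting on HIF-1α in well oxygenated cells and also a HIF target gene. It measured 148 and 158 RPM in LLC and 214 and 177 RPM in LLC-Chem. Both LLC-Chem pools lay above both LLC pools, with the wider gap between the LLC-Chem pools themselves. The log2 fold change was 0.35 (SE 0.13, 95% interval 0.04 to 0.66), or 0.21 without LLC-Chem pool 1 and 0.49 without LLC-Chem pool 2, and the adjusted p was 0.0949 by limma, not called, and 0.04996 by DESeq2, just under its threshold. Egln2 (ENSMUSG00000058709, chr7:27158658-27166802, minus strand), or PHD1, which is not known as a hypoxia-induced gene, measured 51.0 and 62.0 RPM in LLC and 57.6 and 50.02 RPM in LLC-Chem. Its groups overlapped, with a log2 fold change of -0.07 (95% interval -0.42 to 0.28, adjusted p = 0.744 by limma).

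The make-up of the prolyl hydroxylase family was compared per kilobase. Egln3 held 48.7% and 47.2% of the family in LLC and 61.2% and 64.3% in LLC-Chem. Egln1 held 35.5% and 35.1% in LLC and 28.8% and 26.2% in LLC-Chem, and Egln2 went from 15.8% and 17.7% to 9.95% and 9.50%. The shares of a pool add up to 100%, so those of Egln1 and Egln2 go down when Egln3 goes up, and neither gene was called lower in RPM. No share overlapped between the groups, with the exact permutation p again at its smallest value of 0.333. Egln3 was above Egln1 in all pools, 1.37 and 1.34 times in LLC and 2.12 and 2.46 times in LLC-Chem, while Egln2 was the lowest of the 3.

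**Figure D3:**
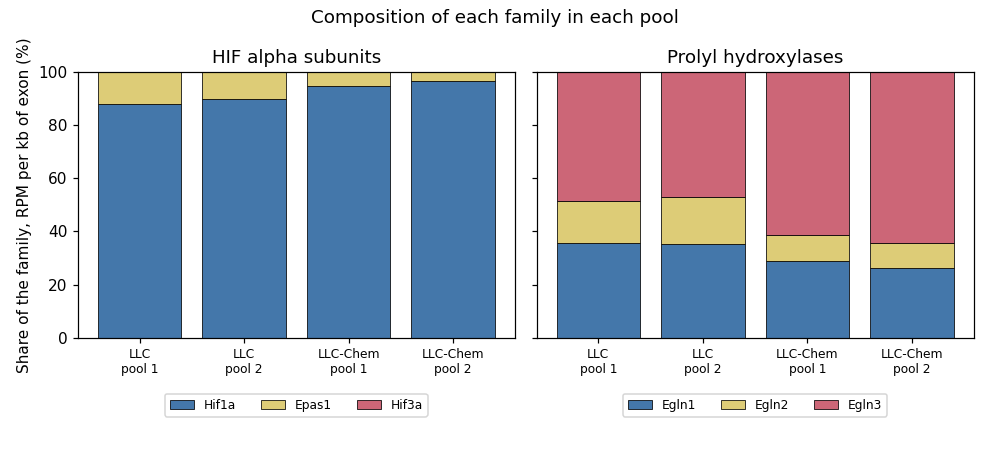
Stacked bars from 0 to 100% show the share of each gene in its family in each pool, from RPM per kilobase of exon. Hif1a takes 87.8% or more of the alpha subunits in all 4 pools, and the Egln3 segment is larger in both LLC-Chem pools (61.2% and 64.3%) than in the LLC pools.

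Hif1an (ENSMUSG00000036450, chr19:44562850-44576274, plus strand), the asparaginyl hydroxylase, measured 54.0 and 55.6 RPM in LLC and 63.3 and 71.1 RPM in LLC-Chem. Both LLC-Chem pools were higher, yet the difference did not pass the test over all genes (log2 fold change 0.29, SE 0.11, 95% interval 0.02 to 0.56, adjusted p = 0.103 by limma). Vhl (ENSMUSG00000033933, chr6:113623959-113631633, plus strand), the subunit that recognizes hydroxylated HIF, measured 33.8 and 33.6 RPM in LLC and 39.4 and 33.4 RPM in LLC-Chem. LLC-Chem pool 1 was above the other pools, and LLC-Chem pool 2 was the lowest, with a log2 fold change of 0.10 (95% interval -0.21 to 0.42, adjusted p = 0.568 by limma).

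Car9 (ENSMUSG00000028463, chr4:43506966-43513729, plus strand) encodes carbonic anhydrase IX, a membrane enzyme of pH control that is widely used as a marker of hypoxia. It measured 5.05 and 4.90 RPM in LLC and 8.10 and 9.69 RPM in LLC-Chem. All pools were low, and the LLC-Chem pools were both higher. The mean rose from 4.97 ± 0.106 to 8.90 ± 1.13 RPM (SD, n = 2), or 1.79-fold, with a log2 fold change of 0.77 (SE 0.18, 95% interval 0.32 to 1.23, adjusted p = 0.0377 by limma). This call was lost when replicate numbers were fitted as a block (limma's adjusted p = 0.0800), and 9.29% of its exon bases are shared with Gm12454 on the opposite strand.

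Car12 (ENSMUSG00000032373, chr9:66713686-66766845, plus strand), the other membrane carbonic anhydrase linked to hypoxia in carcinomas, went the opposite way. It measured 5.15 and 4.75 RPM in LLC and 1.30 and 0.750 RPM in LLC-Chem. The groups lay far apart, the LLC-Chem pools differed from each other more than the LLC pools in proportion, and the lowest value stood for 25 reads. The mean fell from 4.95 ± 0.283 to 1.02 ± 0.389 RPM (SD, n = 2), or 4.83-fold, with a log2 fold change of -1.86 (SE 0.26, adjusted p = 0.0144 by limma).

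**Figure D4:**
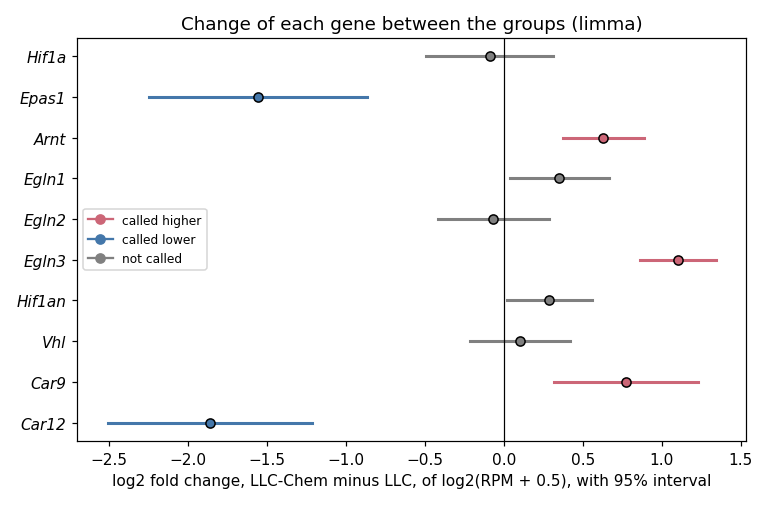
Log2 fold change of log2(RPM + 0.5), LLC-Chem minus LLC, with its 95% interval from limma for the 9 genes tested and Car12. The intervals of Arnt, Egln3 and Car9, and of the uncalled Egln1 and Hif1an, lie above 0, those of Epas1 and Car12 below 0, and those of Hif1a, Egln2 and Vhl span 0.

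By length-corrected level in LLC, the order of the members was Egln3 (57.6 RPM per kilobase), Egln1 (42.5), Hif1a (35.9), Egln2 (20.2), Vhl (11.3), Arnt (10.1), Hif1an (8.29), Epas1 (4.604), Car9 (2.16) and Hif3a (0.0186). In this order Egln1 and Hif1a were closer than the spread of Hif1a over its pools (SD 7.37 RPM per kilobase), so their rank is not settled. In LLC-Chem the order was Egln3 (124), Egln1 (54.4), Hif1a (33.4), Egln2 (19.2), Arnt (15.7), Vhl (12.1), Hif1an (10.2), Car9 (3.86), Epas1 (1.48) and Hif3a (0.0223). Car9 stood above Epas1 in LLC-Chem and below it in LLC. By the longest transcript in place of all exons, Arnt (18.7 RPM per kilobase) was above Vhl (12.1) in LLC too. By that length Hif1a (44.8) was also above Egln1 (42.5) in LLC, and Arnt (29.0) above Egln2 (25.5) in LLC-Chem. The ranks of these pairs therefore depend on the length used. In LLC-Chem the gap between Vhl and Hif1an was little more than the spread of Vhl over its pools (SD 1.41 RPM per kilobase).

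Partners of these genes were examined by their roles. Of 5 components of the VHL ligase other than Vhl, which carry out the ubiquitylation, 1 was called lower and 0 higher by limma, beside 13.5% and 9.54% of all genes (0 higher also at an unadjusted p under 0.05, by edgeR and by DESeq2). It was Nedd8, the activator of the cullin (log2 fold change -0.38, adjusted p = 0.0488). Nedd8 lost its call under TMM scaling (0.0520), median-of-ratios scaling (0.0510), a filter at 5 RPM (0.0507), without trend (0.0917), with the replicate block (0.0978) and by edgeR (0.0505). DESeq2 kept the Nedd8 call (adjusted p = 0.0389). Of 11 regulators of HIF stability tested, Hsp90aa1, a chaperone of HIF-1α, was the 1 gene called lower (log2 fold change -0.82, adjusted p = 0.0246) and the deubiquitinase Usp33 the 1 called higher (0.46, adjusted p = 0.0451), both by limma and beside 13.5% and 9.54% of all genes. The Usp33 call was lost without trend (adjusted p = 0.0638) and with the replicate block (0.0941), and edgeR and DESeq2 called 2 and 3 of the list higher and 1 lower each.

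Of 6 coregulators tested, 2 were called higher and 0 lower by limma, beside 9.54% and 13.5% of all genes (3 higher and 0 lower at an unadjusted p under 0.05, 2 and 0 by edgeR and by DESeq2, 1 and 0 with the replicate block). Cited2, itself induced by hypoxia and also in the hypoxia list that the study chose on these samples, competes with HIF-1α for the coactivators p300 and CBP. It measured 66.3 and 58.0 RPM in LLC and 105 and 87.3 RPM in LLC-Chem (log2 fold change 0.62, adjusted p = 0.0318). The coactivator Ncoa1 rose by 0.51 in log2 RPM (adjusted p = 0.0490 by limma), and its call was lost without trend (0.0707) and with the replicate block (0.105), while Cited2 lost its call without trend (0.0600) and not with the block (0.0415).

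Enzymes of the same class as the EGLNs, which also need oxygen and 2-oxoglutarate or otherwise use oxygen directly, were measured in a list of 19. Limma called 8 higher and 0 lower, beside 9.54% and 13.5% of all genes (11 higher and 1 lower at an unadjusted p under 0.05, 9 and 0 by edgeR and by DESeq2), with a median log2 fold change of 0.36. Of the 8, Kdm3a and P4ha1 also stand in the hypoxia list that the study chose on these samples. The histone demethylase Kdm4b measured 33.6 and 38.4 RPM in LLC and 84.9 and 85.1 RPM in LLC-Chem (log2 fold change 1.23, adjusted p = 0.00930 by limma). Kdm3a, another histone demethylase, measured 92.9 and 81.5 RPM in LLC and 189 and 220 RPM in LLC-Chem (log2 fold change 1.23, adjusted p = 0.0105 by limma). Kdm6b, Kdm5b, the collagen prolyl hydroxylase P4ha1 and Tet2 rose by 0.70 to 0.91 on the log2 scale. Kdm3a, Kdm4b and P4ha1 are known HIF targets and are counted again among the targets described next.

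Known HIF target genes were measured in a list of 40, of which 39 were tested, and Epo was listed at 0 in every pool. Limma called 16 higher and 4 lower, beside 9.54% and 13.5% of all genes, and the median log2 fold change was 0.40. Of the list, 13 genes also stand in a hypoxia list that the study chose on these samples, which is not independent evidence of direction. Without those 13, the count was 4 higher and 4 lower of 26 tested, with a median of -0.03. The study listed its genes because they rose in these samples. Leaving them out therefore lowers the count higher and the median by construction.

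The target with the lowest adjusted p was Adm, which encodes the vasoactive peptide adrenomedullin. It measured 28.6 and 31.2 RPM in LLC and 103 and 87.6 RPM in LLC-Chem (log2 fold change 1.65, adjusted p = 0.00665 by limma). The mitophagy gene Bnip3 went from 154 and 123 to 317 and 269 RPM (1.08, adjusted p = 0.0144) and Ankrd37 from 8.60 and 11.1 to 25.2 and 21.04 RPM (1.20, adjusted p = 0.0172). Pdk1, which limits the entry of pyruvate into the mitochondria, and the transcription repressor Bhlhe40 rose by 0.93 and 0.75 on the log2 scale. For each of these genes the LLC-Chem pools were above the LLC pools, without overlap, as for 33.1% of all genes tested.

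The other 19 targets tested were not called by limma. Among them were Vegfa, the main angiogenic growth factor, the glucose transporter Slc2a1, and the glycolytic genes Pgk1, Ldha, Aldoa, Eno1, Tpi1 and Gapdh. These glycolytic genes were chosen for naming after their values were seen. Hk2, a glycolytic gene of the same list, was called higher by limma, so the uncalled names do not describe all glycolytic targets. Vegfa measured 178 and 116 RPM in LLC and 233 and 248 RPM in LLC-Chem (log2 fold change 0.74, adjusted p = 0.0533 by limma). It was called by limma under TMM scaling (adjusted p = 0.0407) and median-of-ratios scaling (0.0433), by edgeR (0.0488) and by DESeq2 (0.00413), and not without trend (0.0882) or with the replicate block (0.0774). Without LLC pool 1 its log2 fold change was 1.04, and without LLC pool 2 it was 0.43. For Slc2a1 the values were 179 and 138 RPM in LLC and 241 and 187 RPM in LLC-Chem (log2 fold change 0.43, adjusted p = 0.134 by limma). Its log2 fold change was 0.24 without LLC pool 2, 0.25 without LLC-Chem pool 1, and 0.61 without LLC pool 1 or LLC-Chem pool 2. The groups did not overlap for either gene, as for 33.1% of all genes tested in this direction.

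The 4 targets called lower were Lox, a collagen crosslinking enzyme, Car12, the chemokine receptor Cxcr4 and Pfkfb4, a regulator of glycolysis. Lox measured 241 and 315 RPM in LLC and 83.7 and 80.4 RPM in LLC-Chem (log2 fold change -1.74, adjusted p = 0.00882 by limma). Cxcr4 was at 19.1 and 14.99 RPM in LLC and 6.15 and 2.90 RPM in LLC-Chem, a change of -1.87 in log2 RPM (adjusted p = 0.0235 by limma). Pfkfb4, at 24.2 and 32.5 RPM in LLC and 17.5 and 16.1 RPM in LLC-Chem, fell by 0.72 in log2 RPM (adjusted p = 0.0411 by limma). This call was lost under TMM scaling (0.0529) and median-of-ratios scaling (0.0502), without trend (0.0600), with the replicate block (0.0762) and by edgeR (0.0517). DESeq2 kept the Pfkfb4 call (adjusted p = 0.0115). Lox and Cxcr4 are also expressed by fibroblasts and by leukocytes and endothelial cells, respectively, and the part of those markers in their differences was not tested.

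**Figure D5:**
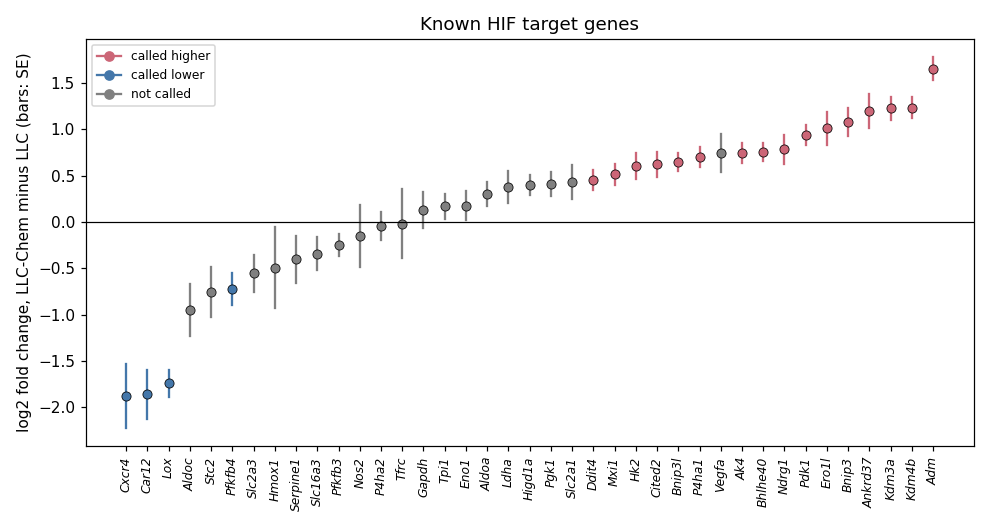
Log2 fold change (points) with SE (bars) of the 39 known HIF target genes tested, ordered by value and coloured by the limma call. The values run from -1.87 for Cxcr4 to 1.65 for Adm, with 16 genes called higher and 4 called lower.

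The calls of Egln3, Arnt and Epas1 held in 10 of 15 other settings, and that of Car9 in 9. They were lost with no filter on low values, and when LLC pool 1, LLC pool 2, LLC-Chem pool 1 or LLC-Chem pool 2 was left out, in which case limma called no gene at all, 0 higher and 0 lower, against 998 to 2359 higher and 1580 to 2823 lower at an unadjusted p under 0.05. Over these settings the log2 fold change ran from 1.07 to 1.15 for Egln3, 0.57 to 0.70 for Arnt, 0.65 to 0.90 for Car9 and -1.89 to -1.22 for Epas1.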

How the data were processed

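RNA-seq of 4 tumor pools was analysed. Per the study's methods and the submitters' processing notes, paired-end reads were mapped to GRCm38.p4 (mm10) with STAR and counted with HTSeq on the Ensembl 84 annotation. Tool versions and the strand setting are not given in the sources used here. The authors deposited RPM for 47729 genes. All values above 0 were whole multiples of 1 step per pool (100%, within 6e-05 RPM), from which a scaling to 20000000 was inferred and whole reads were recovered (fitted totals 28470000 to 33990000). On these reads edgeR called 1551 genes higher and 1600 lower.

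Groups came from the labels. The test was limma 3.58.1 under R 4.3.3, two-sided, with a trended eBayes after lmFit, on log2(RPM + 0.5), a scale that understates folds of low genes. It covered the 13694 genes averaging 1 RPM or more, all of which entered the Benjamini-Hochberg adjustment, and the code was tested on simulated data. RPM are not counts, so edgeR 4.0.16 and DESeq2 1.42.0 on recovered reads were alternatives, beside other pseudocounts (0.1 and 1), scalings, filters, a fit without trend, a replicate block and leaving out each pool. Named were all members and Car12, up to 6 genes per list by lowest adjusted p in each direction, a few well known targets and markers, and the 3 genes nearest in pattern to Egln3 and to Epas1. The members and lists were chosen with earlier results of these data known. Lengths (union of exons) and positions came from GENCODE M21 (GRCm38), where 47310 identifiers (99.1%) were found. Plots were drawn with matplotlib 3.10.9, and summaries made with pandas 2.3.3 and numpy 2.4.6 under Python 3.11.15.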

Additional observations from a re-analysis of the deposited data

How the results depend on the processing

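With no filter on low values, limma called 1 gene higher and 0 lower of 26260 (3394 and 4003 at an unadjusted p under 0.05), and 0 members and 0 HIF targets in each direction. Leaving out any 1 pool gave 0 to 0 genes, members and HIF targets called higher and 0 to 0 lower, with smallest adjusted p-values of 0.0542 to 0.0792; the lone pool is then assumed to vary like the other group. Directions turned for members that were not called: Hif1a went to 0.12 without LLC pool 1 (range -0.30 to 0.12), Egln2 to 0.073 without LLC pool 2 and 0.03 without LLC-Chem pool 2 (range -0.21 to 0.073), and Vhl to -0.015 without LLC-Chem pool 1 (range -0.015 to 0.22). By the longest transcript in place of all exons, the LLC share was 90.7% for Hif1a and 45.4% for Egln3. DESeq2 called 1876 genes higher and 2271 lower, and 4 members higher. Deviations of same-numbered pools from their group means correlated at -0.14 across 13694 genes. With 2 pools per group this is 1 comparison, which cannot tell whether same-numbered pools were handled together. Under a replicate block, limma called 549 genes higher and 1064 lower, and 2 members higher and 1 lower. A crossed pairing, chosen after seeing the data, called 1579 and 2320 genes, and 3 and 1 members. At 3 to 5 reads a library, Hif3a is near the limit of depth; for the others the spread between 2 pools limits precision.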

Other observations

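Relatives of the HIF subunits in the bHLH-PAS family, which bind DNA as pairs and include the clock proteins and the aryl hydrocarbon receptor, were measured in a list of 8 genes. Of the 6 tested, limma called 0 higher and 0 lower, beside 9.54% and 13.5% of all genes. At an unadjusted p under 0.05 the count was 1 higher and 0 lower, and edgeR and DESeq2 called 0 in each direction. The log2 fold changes of the 6 ran from -0.58 to 0.28. Of the other two, which averaged under 1 RPM, Npas3 measured 0.150 and 0.250 RPM in LLC and 1.55 and 1.15 RPM in LLC-Chem, or 4 and 7 reads against 52 and 38, and Sim2 0.150 and 0.200 RPM in LLC and 0 in both LLC-Chem pools. Npas3 was named after its values were seen and was not tested. Arntl, a paralog of Arnt and part of the clock, measured 29.3 and 30.3 RPM in LLC and 36.5 and 35.9 RPM in LLC-Chem (log2 fold change 0.28, adjusted p = 0.116 by limma). Ahr, another partner of ARNT, measured 18.4 and 18.3 RPM in LLC and 14.9 and 18.5 RPM in LLC-Chem, with overlapping groups.

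Over the 4 pools, the genes whose pattern lay nearest to that of Egln3, by the Euclidean distance of centred log2(RPM + 0.5), were Zfp345 (0.0391), Efna2 (0.0603) and Fmo6 (0.0724). Nearest to Epas1 were Gad1-ps (0.0543), the interferon-induced chemokine gene Cxcl9 (0.0694) and H2-Q5 (0.0804), a MHC class I gene with near-identical relatives and so of uncertain count. With 4 pools such nearness is a description.

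Erythroid markers, a measure of blood in the tissue, summed to 97.7 and 38.8 RPM in LLC and to 124 and 3.80 RPM in LLC-Chem, so LLC-Chem pool 2 had the least. Mitochondrial genes took 1.53% to 2.77% of the RPM over the 4 pools. Adipocyte markers gave 1 call higher of 3 tested, muscle markers 1 higher of 1 and keratinocyte markers 0 of 1 by limma. These counts stand beside 9.54% of all genes called higher and 13.5% called lower. For the keratinocyte list the count was 0 higher and 1 lower at an unadjusted p under 0.05, and 0 by edgeR and DESeq2. The summed levels of these lists were all low, under 40 RPM.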
